A study of Mus musculus with 4 samples.

Results

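Pancreatic polypeptide (PP) cells, also called gamma cells, are a rare endocrine cell type of the islet that secretes the peptide hormone encoded by Ppy. They were chosen from single-cell RNA sequencing of mouse islets by a hormone gate: 500 or more detected genes, mitochondrially encoded transcripts at most 20% of the cell's unique molecular identifiers (UMIs, 1 per captured transcript), Ppy at least 3% of UMIs, and Ins1 plus Ins2, Gcg and Sst each below 3%. The gate held 801 of 43205 kept cells, with 144 PP cells in the Cre-negative library, 263 in the Cre-positive library, 125 in the control offspring library and 269 in the IHG offspring library. Alpha, delta and beta cells were gated in the same way on Gcg, Sst and Ins1 plus Ins2, which gave 4921, 3151 and 24182 cells. All islets came from male mice aged 8 weeks. Cre-negative mice carried Tet2(flox/flox) and Tet3(flox/flox) without Pdx1 Cre, and Cre-positive mice had these floxed genes plus a Pdx1-driven Cre, active in the early pancreatic epithelium that gives rise to every islet endocrine cell. Control offspring were born to control mothers, and IHG offspring to mothers with hyperglycaemia in pregnancy (intrauterine hyperglycaemia). Tet2 and Tet3 encode enzymes that oxidise methylated cytosine in DNA. Each group was 1 library, the sources used here do not say how many mice were behind it, and islets had been cultured and dissociated with trypsin before capture. Where 4 values follow each other without names, they stand in the order Cre-negative, Cre-positive, control and IHG.

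PP is a hormone of the neuropeptide Y (NPY) family, with peptide YY (Pyy) and NPY itself, and is released after meals under vagal control. It acts on the Y4 receptor, Npy4r, and lowers pancreatic secretion, gut motility and food intake. PP cells lie mostly at the islet edge and in the part of the pancreas that derives from the ventral bud. In mouse islets Pyy is also made at lower levels by alpha and delta cells.

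Ppy and Pyy lie side by side on chromosome 11 (GRCm38, minus strand), Ppy at 102099930 to 102101319 and Pyy at 102106676 to 102107832, with 5356 bases between them. Their promoters are shown because the pair of hormones below is read from these neighbouring genes. The 250 bases before each start site (RefSeq, GRCm38.p6), on the strand of the gene and ending at the start site, cover chr11:102101320-102101569 for Ppy and chr11:102107833-102108082 for Pyy, with the motif TATAA in capitals.
Ppy: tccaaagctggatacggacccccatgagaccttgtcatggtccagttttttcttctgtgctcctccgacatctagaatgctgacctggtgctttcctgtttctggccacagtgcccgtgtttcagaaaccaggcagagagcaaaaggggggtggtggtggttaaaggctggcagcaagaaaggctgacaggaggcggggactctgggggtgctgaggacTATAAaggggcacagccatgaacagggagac
Pyy: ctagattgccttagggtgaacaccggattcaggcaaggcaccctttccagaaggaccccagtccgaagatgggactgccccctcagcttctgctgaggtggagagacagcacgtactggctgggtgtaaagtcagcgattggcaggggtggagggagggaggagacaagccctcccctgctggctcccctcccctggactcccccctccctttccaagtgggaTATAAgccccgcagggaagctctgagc
TATAA, the core of a TATA box, began at -31 in Ppy and -27 in Pyy, and it was present on either strand in 22.8% of 32851 promoters of this length. The E-box letters CANNTG were present in the Pyy window and not in the Ppy window (66.2% of promoters hold them). The letters CCNCNCCC were present in both (45.9%), and TAATTA and TGACNTCA in neither (4.84% and 7.49%), all searched on both strands. A match is a description of the letters in the window and not a binding site.

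PP cells were shallower than the average kept cell. Their median depth was 6412, 5073, 3580 and 5548 UMIs, and together they held 982580, 1634275, 576634 and 1572056 UMIs. Scrublet scores in the top 6% of a library marked 5, 14, 3 and 3 of the PP cells as possible doublets. Between 58 and 246 cell barcodes were shared by any pair of libraries, and 9, 6, 2 and 10 PP cells carried such a barcode. Among marker lists of non-endocrine cells, endothelial markers were the highest besides duct markers (given beside Spp1 below), with summed levels of 108, 179, 349 and 278 CPM. Fibroblast markers reached 97.7 CPM and proliferation markers 118 CPM in the Cre-negative library, against 12.2 to 31.8 and 6.12 to 56.6 CPM in the others. All 96 fibroblast UMIs of the Cre-negative PP cells were Col1a2, and the other listed fibroblast genes had 0. Of these 144 cells, 2 held 2 or more UMIs of proliferation markers. Acinar markers summed to 1.91 to 13.5 CPM (UMIs per 1000000 UMIs of the class), T and B cell markers to 0 to 2.45 CPM, and macrophage markers to 9.16 to 15.3 CPM in all but the Cre-positive library, where they reached 137 CPM. Pericyte markers stood at 168 CPM in control offspring PP cells against 3.18 to 30.6 CPM in the others. Non-endocrine markers at 5 or more UMIs were seen in 5, 10, 2 and 6 PP cells. Duct and proliferation markers were left out of this count and of the removal of such cells below.

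The Cre-negative library stood apart at the gate. There Ppy rose gradually across the gate, with 59 cells at 2 to 3% of UMIs just outside and 36 at 3 to 4% just inside, whereas the other libraries held 16 and 8 (Cre-positive), 9 and 2 (control offspring) and 16 and 11 (IHG offspring). Cells with Pyy at 3% or more but Ppy below 3% (and the other hormones below 3%) numbered 466 in the Cre-negative library, 7.86% of its kept cells (exact binomial 95% interval 7.19 to 8.58), against 16, 19 and 49 cells in the others. Those 466 cells held 12841 CPM of Ttr (transthyretin, abundant in alpha cells) against 4384 CPM in the gated PP cells. Spp1 and Fxyd3, both high in gated PP cells, were lower in them, at 12.4 and 14.1 CPM against 81.4 and 77.3 CPM.

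PP cells made up a small share of the cells that passed exactly 1 of the 4 hormone gates. The share was 3.20% (2.71 to 3.76) in the Cre-negative, 4.82% (4.27 to 5.42) in the Cre-positive, 0.948% (0.790 to 1.13) in the control offspring and 2.71% (2.40 to 3.05) in the IHG offspring library. Exact binomial 95% intervals, here and below, cover counting error only, and with 1 library a group no test between groups exists. The order depended on the gate: at 10% Ppy the Cre-negative share was 0.483%, and with Pyy in place of Ppy it was 12.3%. Control offspring PP cells were the rarest at the gate used, and at 10% Ppy they stood at 0.600%, above the Cre-negative share. Islets were picked by hand, and the shares are of captured cells. Cells with both Ppy and another hormone at 3% or more were not counted as PP cells. There were 1, 80, 45 and 28 such cells for insulin, 7, 104, 29 and 62 for Gcg, and 3, 62, 24 and 12 for Sst in the 4 libraries.

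Ppy and Pyy together filled a median of 21.1%, 18.3%, 20.3% and 30.9% of the transcripts of a PP cell. Ppy, which chose the cells, had a median of 5.20% of UMIs in Cre-negative cells (3.00 to 15.4), 10.9% in Cre-positive cells (3.04 to 30.0), 11.0% in control offspring (3.21 to 24.5) and 12.6% in IHG offspring (3.03 to 41.5). Pyy, the gut and islet hormone of the same family, had a median of 14.0% (3.11 to 32.5), 7.13% (0.573 to 42), 8.49% (1.07 to 30.7) and 16.4% (1.11 to 43.9). Cre-negative cells were thus lowest in Ppy, and the Cre-negative and IHG offspring cells were highest in Pyy, with cell ranges that overlapped in all 4 libraries. Pyy was below Ppy in 8.33%, 71.5%, 64.0% and 34.9% of PP cells. Within a library the Pearson correlation of the 2 shares over cells was -0.11, 0.29, 0.21 and -0.05, a description over cells that share a library and a total to which both hormones add.

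**Figure D1:**
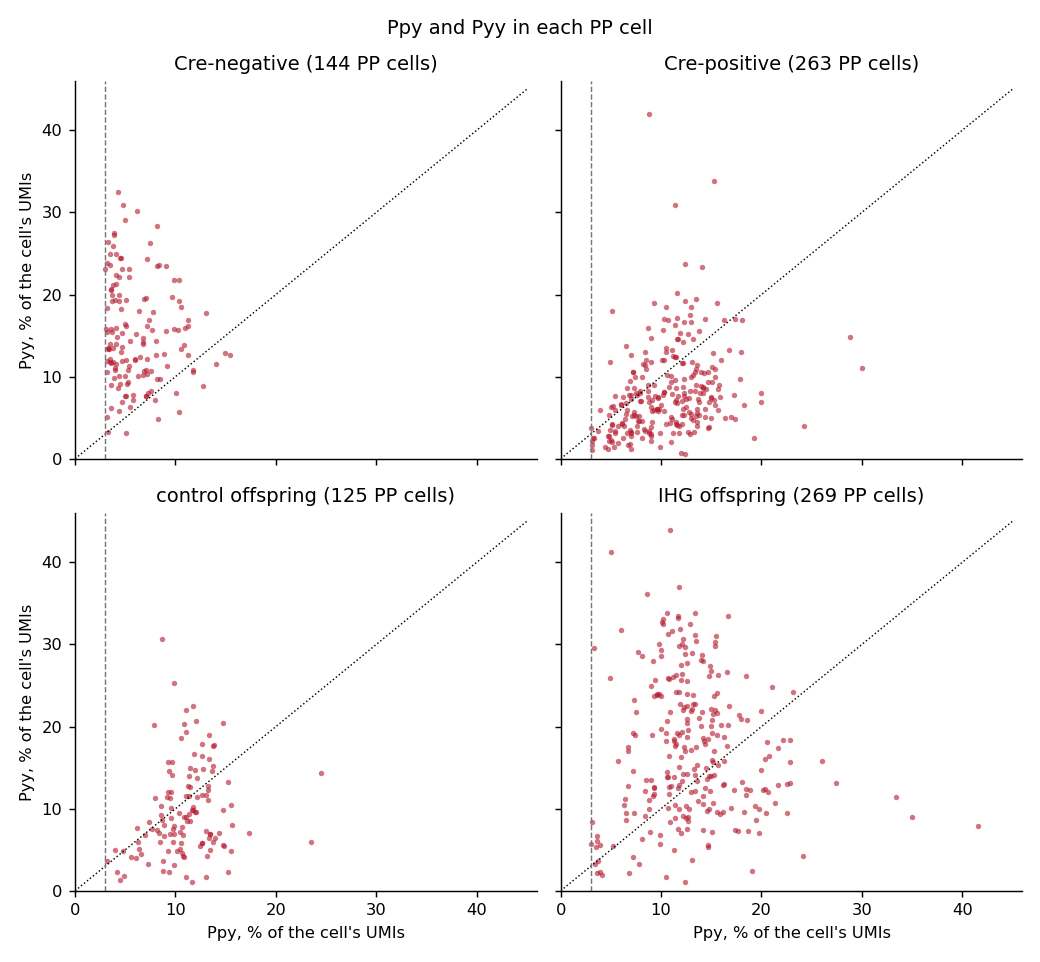
Each point is 1 PP cell, with Ppy on the horizontal and Pyy on the vertical axis as percent of the cell's UMIs, in 1 panel per library. The dashed line is the 3% gate and the dotted line marks equal shares; most Cre-negative cells lie above the dotted line near the gate, and 71.5% of Cre-positive cells lie below it.

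Set beside other classes, Pyy was higher in PP cells in every library. Its summed level was 156713, 88377, 97537 and 181768 CPM in PP cells, 21580, 20140, 20094 and 28764 CPM in delta cells, 12260, 14995, 10606 and 16641 CPM in alpha cells, and 418 to 1821 CPM in beta cells. In edgeR's quasi-likelihood test with Benjamini-Hochberg adjustment, on UMI sums with the library as a block and the 5 gate genes left out, Pyy was 8.37-fold higher than in alpha cells (adjusted p = 9.9e-12), 5.85-fold higher than in delta cells (adjusted p = 2.9e-10) and 110-fold higher than in beta cells (adjusted p = 2.5e-09). It was higher in 4 of 4 libraries each time. Endothelial cells, which make neither hormone, held 34.2, 315, 53.0 and 106 CPM of Ppy and 1296, 469, 96.9 and 204 CPM of Pyy, a measure of free RNA. Their gate capped Ppy but not Pyy, and 1 Cre-negative cell in it held Pyy at 3% or more. Macrophages held 326, 362, 13.5 and 122 CPM of Pyy. The delta-cell Pyy level was above the endothelial and macrophage levels in all libraries, and so was the alpha-cell level. Ppy, given without a test because it set the gate, stood at 62367, 109959, 111837 and 128043 CPM in PP cells and at 903 to 6178 CPM in delta, 668 to 2630 in alpha and 176 to 638 in beta cells.

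**Figure D2:**
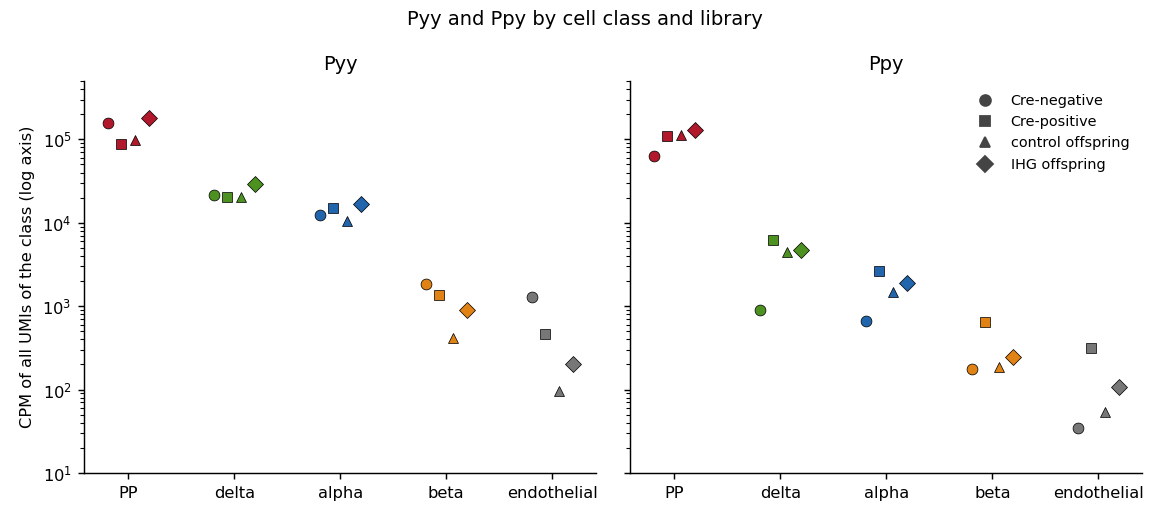
Summed Pyy and Ppy levels in CPM (log axis) for PP, delta, alpha, beta and endothelial cells, with 1 point per library. Pyy in PP cells lies above every delta cell value, from 88377 to 181768 CPM against 20094 to 28764 CPM.

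Of the other genes of the NPY system, Npy had 19 UMIs in 6 Cre-positive PP cells and 0 UMIs in the other 3 libraries. The receptor genes Npy1r, Npy2r, Npy4r, Npy5r and Npy6r had 0 UMIs in all 4, which allows levels of up to 3.05, 1.84, 5.20 and 1.91 CPM (3 UMIs). Dpp4, the peptidase that trims PYY and NPY, was lower than in each of the other 3 classes, at 36.6, 30.6, 29.5 and 15.9 CPM in PP cells against a mean of 60.4 CPM in alpha cells (log2 difference -1.10, adjusted p = 0.00047).

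Among other hormones, which the gate capped, the summed Gcg level was above that of endothelial cells. In the Cre-negative and control offspring libraries 3 cells carried much of it. Gcg stood at 762, 4228, 1132 and 1909 CPM, against 380, 1963, 465 and 933 CPM in endothelial cells of the same libraries. The median PP cell held 248, 1797, 357 and 635 CPM of Gcg. A median over cells is not comparable with the summed endothelial level. The top 3 cells held 44.1% and 34.5% of the Gcg UMIs in the Cre-negative and control offspring libraries. PP cells with more than 1% Gcg numbered 5, 35, 2 and 13. Ins2 stood at 2054, 2940, 4889 and 2235 CPM, against 2589, 2552, 5327 and 2484 CPM. Sst stood at 576, 814, 1117 and 405 CPM, against 581.5, 740, 392 and 428 CPM. Ghrl, the epsilon-cell hormone ghrelin, had 352 UMIs in 1 control offspring PP cell and 0 UMIs in all other PP cells. Iapp, the amylin gene, stood at 1000, 2766, 2242 and 4546 CPM. Cells with more than 1% Iapp numbered 0, 18, 4 and 20, and they held 0%, 69.8%, 39.1% and 82.5% of all Iapp UMIs. The median PP cell had 0.0624%, 0.0757%, 0.0972% and 0.0530% Iapp.

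Against each of the other 3 endocrine classes, 254 of 10035 genes tested were higher in PP cells in all 3 comparisons (2.53%) and 154 were lower in all 3 (1.53%), each at an adjusted p under 0.05. Without the Cre-negative library the counts were 226 and 133, and without the IHG offspring library 161 and 82, of which 156 and 80 were among those called with all 4. By their smallest fold change, the leading genes included Spp1, Pyy, Serpina7, Snhg18, Kdelr3, Lrrtm1, Hspb8, Ugt2b34 and Olfm3. The p-values measure the spread between 4 libraries of different groups, and no label says how many animals these came from. Levels here are tags of transcript 3' ends, and the folds are relative to all UMIs without the gate genes.

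Spp1 (osteopontin, chromosome 5, 104435118 to 104441050), a secreted phosphoprotein, stood at 81.4, 52.0, 91.9 and 165 CPM in PP cells against a mean of 9.61 CPM in alpha, 13.6 in delta and 9.80 in beta cells, which made it 8.54-, 7.33- and 8.53-fold higher. The lowest PP library was above the mean of every other class, and 22.2%, 18.3%, 26.4% and 41.6% of PP cells held an Spp1 UMI. Spp1 is also a marker of pancreatic duct cells. The 6 duct markers listed summed to 207, 926, 874 and 486 CPM in PP cells, against 106 to 426 CPM in alpha cells, of which Krt8, a keratin that islet cells also express, made up 125, 867, 747 and 317 CPM. Of the other listed duct markers, Krt19 and Cftr had 0 UMIs in PP cells of all 4 libraries. Sox9 had 0, 10, 20 and 5 UMIs, and Muc1 had 0, 2, 0 and 1. Serpina7 (chromosome X, 139079257 to 139085236), the thyroxine-binding globulin gene, stood at 153, 42.8, 26.0 and 80.8 CPM and was 4.38-, 9.42- and 4.59-fold higher. Its level varied most among these genes together with Lrrtm1, a synaptic adhesion gene, which stood at 101, 43.4, 46.8 and 24.2 CPM. Snhg18, a long non-coding RNA, stood at 91.6, 99.7, 111 and 137 CPM and was 4.86-, 3.64- and 3.86-fold higher.

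Kdelr3, a receptor that returns endoplasmic reticulum proteins from the Golgi, stood at 42.7, 85.1, 101 and 98.6 CPM and was 3.36-, 4.45- and 17.7-fold higher. Ugt2b34, a glucuronosyltransferase gene, stood at 383, 294, 229 and 268 CPM and Olfm3, an olfactomedin-family secreted protein gene, at 128, 46.5, 71.1 and 64.2 CPM. Olfm3 was 15.4-fold higher than in alpha, 2.83-fold higher than in delta and 224-fold higher than in beta cells. The small heat shock protein gene Hspb8 stood at 238, 770, 539 and 212 CPM, high in the Cre-positive and control offspring libraries as were many heat shock genes described further on. The adjusted p-values of these genes ran up to 0.00062 (Lrrtm1 against delta cells).

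**Figure D3:**
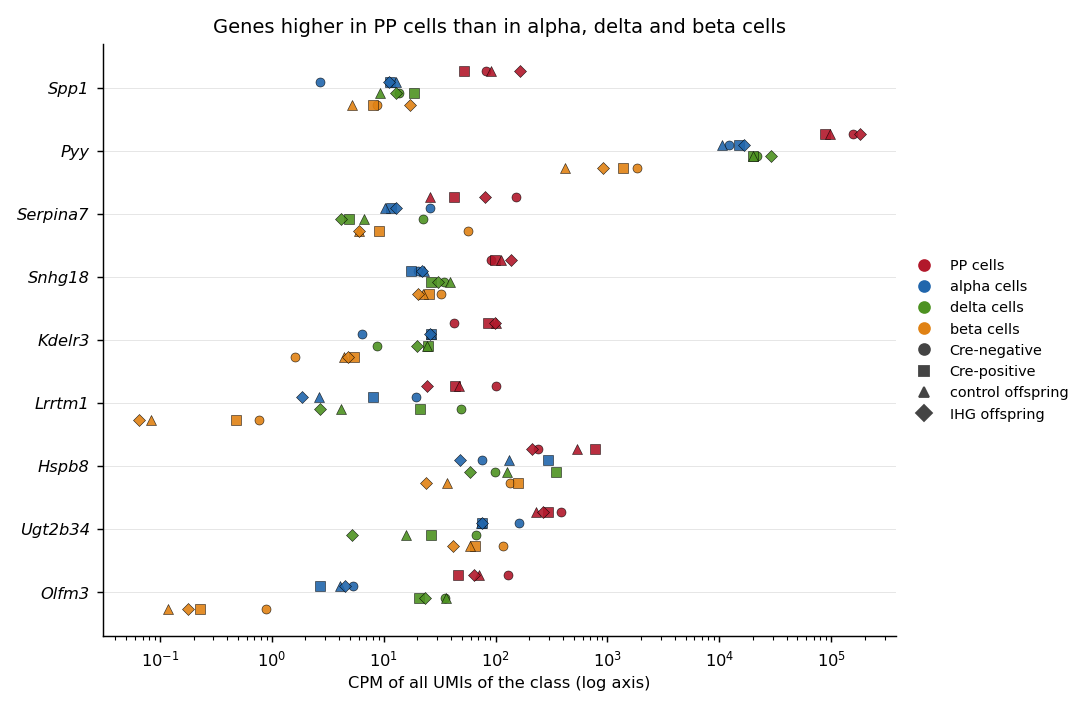
Levels in CPM (log axis) of 9 of the 10 genes with the largest smallest fold change of PP cells over alpha, delta and beta cells, 1 point per library and class. Spp1 lies at 52.0 to 165 CPM in the 4 PP libraries, and Ugt2b34 at 229 to 383 CPM.

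Among genes lower in PP cells than in all 3 classes, Lrp8, a reelin and apolipoprotein E receptor gene, stood at 6.11, 3.06, 1.73 and 1.27 CPM and was 7.44-, 16.6- and 6.78-fold lower than in alpha, delta and beta cells. Car8, a carbonic anhydrase-related gene, was 6.37-, 32.8- and 10.4-fold lower, and Baiap3, a regulator of dense-core vesicle release, was 8.70-, 11.1- and 4.45-fold lower. Sim1, Met and Lmx1b were at 0 to 2.54 CPM in every PP library.

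Against alpha cells, Tspan8 led the genes higher in PP cells and the alpha-cell factor Irx1 the lower ones. Of 10713 genes, 1185 were higher (11.1%) and 1079 lower (10.1%) at an adjusted p under 0.05. These counts became 782 and 657 without the IHG offspring library and 1059 and 927 without the Cre-negative one. Tspan8 (chromosome 10, 115816832 to 115849893), a tetraspanin membrane protein gene, stood at 817, 390, 456 and 609 CPM against 17.3 to 27.9 CPM in alpha cells, 22.6-fold higher (adjusted p = 4.2e-14). Creb3l1, a transcription factor of secretory cells held in the endoplasmic reticulum membrane, was 15.9-fold higher. Sh3pxd2a was 8.97-fold, the folate receptor gene Folr1 8.68-fold, the ion transport regulator gene Fxyd3 6.86-fold and the calcium-binding protein gene Cabp7 6.39-fold higher. Among the lower genes, Irx1 stood at 5.09 to 10.4 CPM against 182 to 202 CPM (29.0-fold lower, adjusted p = 4.2e-14). The amino acid transporter gene Slc38a5 was 22.6-fold, the mitochondrial Higd1a 22.2-fold, Olfm1 11.9-fold, the zinc transporter gene Slc30a8 11.5-fold, Arg1 (arginase) 11.2-fold, Dpp10 11.2-fold and Ttr 9.59-fold lower. PP and alpha libraries did not overlap for any gene named in this comparison.

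Against delta cells, 1375 of 10280 genes were higher (13.4%) and 1307 lower (12.7%), or 1359 and 1291 without the Cre-negative library. The metabolic gene Pdk4 was among the higher genes and the delta-cell factor Hhex among the lower. Pdk4, which restrains pyruvate oxidation, was 18.8-fold, the tetraspanin gene Cd9 14.0-fold, the protease gene Pappa2 12.7-fold, Spon2 11.2-fold and the magnesium transporter gene Slc41a2 10.7-fold higher. Pdk4 varied among PP libraries, at 182, 141, 76.3 and 42.6 CPM. Hhex, the delta-cell homeobox gene, stood at 0, 6.12, 6.94 and 3.82 CPM against 356 to 564 CPM in delta cells (104-fold lower, adjusted p = 2.6e-11). Neurog3, the endocrine progenitor factor gene found at 48.7 to 149 CPM in delta cells, was at 0 to 2.45 CPM in PP cells. Shisal2b was 57.2-fold, Ptprz1 48.4-fold, Bmp3 43.5-fold, Arg1 40.6-fold and the imprinted gene Mest 39.6-fold lower.

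Against beta cells, 1912 of 13422 genes were higher (14.2%) and 2139 lower (15.9%), or 1802 and 2050 without the Cre-negative library. Lrrtm1 was 159-fold, the endoplasmic reticulum calcium-binding protein gene Rcn3 64.9-fold, Pdk4 46.8-fold, the elongation factor gene Eef1a2 41.6-fold and the imprinted gene Sgce 41.6-fold higher. Of the listed beta cell markers, 8 of 8 tested were lower. Slc2a2, the glucose transporter GLUT2, stood at 5.09, 3.67, 29.5 and 7.63 CPM against 265 to 711 CPM (69.3-fold lower), G6pc2, the islet glucose-6-phosphatase, was 67.7-fold lower, Mafa 61.3-fold and Ucn3 57.5-fold lower. Tmem215 was 167-fold, the cation channel gene Trpm5 90.7-fold, Th (tyrosine hydroxylase) 80.4-fold, Gad1 (glutamate decarboxylase) 76.4-fold and the granule docking gene Sytl4 68.1-fold lower. Slc2a2, Mafa and Ucn3 were highest in the control offspring library within PP cells, where free insulin RNA was also highest, with 5327 CPM of Ins2 in endothelial cells against 2484 to 2589 CPM elsewhere. The part of free RNA in these low levels was not tested.

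Lineage transcription factor genes differed from each neighbouring class in both directions. Of the listed factors, 6 were higher and 12 lower of 27 tested against alpha cells, 5 and 14 of 26 against delta cells, and 9 and 12 of 29 against beta cells, where the median log2 difference was -0.20, -0.35 and -0.28 beside -0.02, 0.01 and -0.03 for all genes. Etv1, an ETS factor gene, stood at 520, 436, 434 and 428 CPM and was higher than in all 3 classes (log2 differences 0.39, 0.67 and 3.86). Nkx6-1, needed for beta cells, was intermediate, at 218, 294, 300 and 258 CPM against a mean of 77.9 CPM in alpha, 54.6 in delta and 670 in beta cells. Pdx1, the driver of the Cre transgene, stood at 21.4, 22, 17.3 and 18.4 CPM, above alpha cells (5.42 CPM) and below delta and beta cells (74.1 and 111 CPM), each at an adjusted p of 0.00019 or less. Meis2 was higher than in alpha and beta cells and lower than in delta cells (log2 differences 0.43, 0.85 and -0.41).

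**Figure D4:**
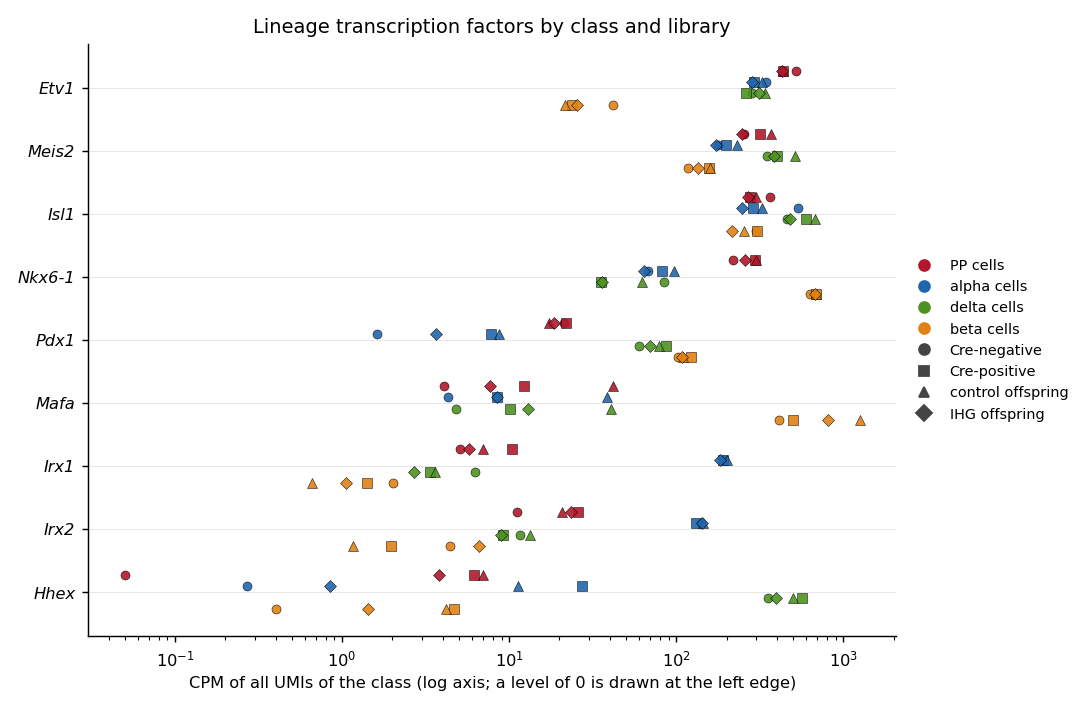
Levels in CPM (log axis) of 9 transcription factor genes in PP, alpha, delta and beta cells, 1 point per library, with a level of 0 drawn at the left edge. Among the 4 classes drawn, Irx1 and Irx2 are highest in alpha cells, Hhex in delta cells, and Mafa and Nkx6-1 in beta cells.

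Rfx6, Myt1 and Sox4 were lower than in all 3 other classes. Rfx6, an islet development factor, stood at 32.6, 19.6, 24.3 and 15.9 CPM against means of 49.8, 96.9 and 62.1 CPM. Sox4 stood at 65.9 to 81.4 CPM against 213, 104 and 155 CPM. Insm1 was lower than in delta and beta cells (log2 differences -1.44 and -1.5), and Neurod1 was lower than in alpha and beta cells (-0.65 and -0.83). Irx2 was lower than in alpha cells (log2 difference -2.87) and higher than in delta and beta cells (1.07 and 2.48). Fev and Gata6 were higher than in beta cells (4.17 and 2.15). Pax6 at 210 to 266 CPM and Isl1 at 270 to 362 CPM marked PP cells as endocrine.

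The counts of the gene lists below stand beside the shares of all genes called, which were 11.1% higher and 10.1% lower against alpha, 13.4% and 12.7% against delta, and 14.2% and 15.9% against beta cells. Of 19 genes commonly listed for PP cells, a list drawn from knowledge of the cell type and not independent of it, 8 were higher and 2 lower of 14 tested against alpha cells, 4 and 5 of 13 against delta cells, and 11 and 2 of 15 against beta cells. The median log2 difference was 0.41, 0.02 and 1.29, to be read beside the values of all genes given above. Etv1, Tspan8 and Vsig1, a junction protein gene at 15.3, 11.0, 10.4 and 14.6 CPM, were higher than in all 3. Sertm1 was higher than in delta and beta cells (log2 differences 3.03 and 6.48). Slitrk6 and Spock1 were higher than in alpha cells (1.01 and 2.27) but lower than in delta and beta cells. Thsd7a was lower than in alpha cells (-2.87), and Id4 was lower than in alpha and delta cells (-1.16 and -0.69).

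The hormone processing and granule genes moved both ways, with 9 higher and 8 lower of 20 against alpha cells, 9 and 3 against delta cells, and 8 and 8 against beta cells (medians 0.09, 0.32 and -0.15). Pcsk2, prohormone convertase 2, was the main convertase transcript in PP cells by 3' tags, at 2642, 3429, 3210 and 3576 CPM, while Pcsk1 stood at 11.0 to 36.4 CPM. Pcsk2 was higher than in delta and beta cells (log2 differences 0.60 and 0.41) and lower than in alpha cells (-0.50). Chga, chromogranin A, was the highest member at 13744, 10544, 7011 and 8948 CPM and was lower than in beta cells (-1.47). Scg2, secretogranin II, was higher than in alpha cells (1.37) and lower than in delta and beta cells (-0.45 and -1.19). Scg5, the convertase 2 chaperone 7B2, Ptprn, Sez6l2 and Qpct, which forms pyroglutamate ends, were higher than in all 3 classes. Slc30a8, which loads zinc into granules, stood at 26.5 to 59.4 CPM against means of 484 CPM in alpha and 666 CPM in beta cells.

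Of the exocytosis genes, 4 were higher and 1 lower of 15 against alpha cells, 5 and 4 of 15 against delta cells, and 1 and 8 of 17 against beta cells (medians 0.05, -0.05 and -0.31). Cadps, a priming factor of dense-core granules, was higher than in delta cells (log2 difference 2.88), and Syt4 was higher than in alpha and delta cells (0.50 and 0.81). Rph3al, a Rab27 effector also called Noc2, was lower than in all 3 (-0.40, -0.89 and -0.76).

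Receptors of nutrients, nerves and hormones had 5 higher and 7 lower of 22 tested against alpha cells, 4 and 8 of 20 against delta cells, and 7 and 11 of 26 against beta cells (medians 0.06, -0.10 and -0.18). Without the control offspring library 8 instead of 4 were higher than in delta cells. Chrm3, the muscarinic receptor gene through which the vagus nerve acts on islets, stood at 16.3, 15.3, 27.7 and 16.5 CPM and was higher than in alpha and delta cells (log2 differences 3.46 and 2.19, adjusted p = 5e-07 and 8.9e-05). The difference from beta cells did not pass the test (-0.43, adjusted p = 0.083). Vipr1, Ffar1 and Gpr119, receptors for vasoactive intestinal peptide and for fatty acids and lipid amides, were higher than in delta cells (2.78, 2.79 and 2.82). Ffar4, the long-chain fatty acid receptor gene, was higher than in beta cells (2.90). Glp1r, the incretin receptor gene, was lower than in delta and beta cells (-2.63 and -5.27), and Adra2a, the adrenergic receptor that restrains insulin release, was lower than in the same classes (-3.85 and -5.64). Sstr2, the somatostatin receptor of alpha cells, was lower than in alpha cells (-2.78), whereas Sstr3 was higher (0.49).

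Ion channel genes had 6 higher and 6 lower of 21 against alpha cells, 3 and 9 of 22 against delta cells, and 7 and 12 of 25 against beta cells (medians 0.12, -0.29 and -0.47). Without the Cre-positive library 4 instead of 7 were higher than in beta cells. Kcnk16, the islet potassium leak channel TALK-1, stood at 601, 495, 435 and 675 CPM and was higher than in all 3 classes (log2 differences 0.60, 0.35 and 0.36). Kcnk3, the TASK-1 channel gene, was higher than in delta and beta cells (1.59 and 4.64). Scn3a, a sodium channel gene, was higher than in alpha and beta cells (0.50 and 1.62). The calcium and calcium-activated channel genes Cacna1a, Kcnma1 and Itpr3 were lower than in all 3. Kcnj11, the pore of the ATP-sensitive potassium channel, was present at 146 to 191 CPM.

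In glucose metabolism 2 genes were higher and 2 lower of 30 against alpha cells, 4 and 4 of 29 against delta cells, and 4 and 12 of 31 against beta cells (medians 0.03, 0.07 and -0.28). Against delta cells these shares are near the 13.4% and 12.7% of all genes called. Hk1, the low-Km hexokinase gene, was higher than in delta and beta cells (2.85 and 4.41). Pcx, pyruvate carboxylase, was lower than in beta cells (-3.02).

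Antioxidant genes had 10 higher and 2 lower of 24 against alpha cells, 10 and 2 of 25 against delta cells, and 7 and 8 of 26 against beta cells (medians 0.24, 0.15 and 0.06). Gpx2, Prdx1, Prdx4 and Sqstm1 were higher than in all 3. Gpx2, a glutathione peroxidase gene best known from gut epithelium, stood at 28.5, 37.3, 31.2 and 43.3 CPM against means of 5.45, 8.98 and 19.2 CPM. Gpx3 was higher than in delta and beta cells (log2 differences 1.60 and 4.97) and lower than in alpha cells (-0.41). The metallothionein gene Mt2 was higher than in alpha and delta cells (1.74 and 3.03) and lower than in beta cells (-1.35).

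The unfolded protein response list had 10 higher and 2 lower of 28 against alpha cells, 13 and 1 of 27 against delta cells, and 3 and 16 of 31 against beta cells (medians 0.22, 0.27 and -0.47). Without the IHG offspring library 6 were higher than in alpha and 8 than in delta cells. Dnajb9, a chaperone of the endoplasmic reticulum, was higher than in all 3 (log2 differences 0.91, 0.66 and 0.48), at 591, 622, 434 and 472 CPM. Sdf2l1 and Atf5 were lower than in beta cells (-1.59 and -3.32).

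Immediate early and heat shock genes were higher in PP cells than in the other classes more often than lower: 18 and 4 of 33 against alpha cells, 15 and 1 against delta cells, and 29 and 0 against beta cells. Their median log2 difference was 0.36, 0.23 and 0.97. Against delta cells 9 were higher without the Cre-negative library and 7 without the control offspring library. Fosb, Jund, Klf2, Btg2, Hspa8, Hsp90aa1, Hsp90ab1, Hsph1 and Dnaja1 were higher than in all 3. Genes of this kind are known to respond rapidly to cell stress. They differed widely between libraries, with Klf2 at 285, 201, 858 and 140 CPM and Hsph1 at 154, 1588, 1954 and 543 CPM.

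Interferon and antigen presentation genes had 4 higher and 1 lower of 20 against alpha cells, 3 and 5 of 20 against delta cells, and 6 and 3 of 23 against beta cells (medians 0.04, -0.07 and 0.21). All genes were called at 11.1% and 10.1%, 13.4% and 12.7%, and 14.2% and 15.9% in the same order. Without the Cre-positive or the IHG offspring library 0 and 1 were higher than in beta cells. Stat2 was higher than in all 3. Imprinted genes had 4 higher and 8 lower of 24 against alpha, 3 and 7 of 25 against delta, and 9 and 6 of 26 against beta cells (medians -0.17, -0.20 and 0.19). Without the IHG offspring library 5 imprinted genes were lower than in alpha cells. Among them Dlk1 and Nnat were lower than in delta cells (log2 differences -4.97 and -4.21) and beta cells (-2.85 and -3.82). Peg10 was higher than in beta cells (5.60).

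The TET, DNMT and methyl-binding list had 5 higher and 3 lower of 21 against alpha cells, 2 and 1 of 20 against delta cells, and 4 and 5 of 22 against beta cells (medians -0.01, -0.08 and -0.12). Against delta cells that is below the 13.4% and 12.7% of all genes. Tet3 was higher in PP than in alpha cells (log2 difference 1.0, adjusted p = 0.00012), at 35.6, 21.4, 36.4 and 30.5 CPM against a mean of 14.0 CPM. Mbd1, a methyl-CpG binding protein gene, was higher than in all 3 (0.72, 0.52 and 1.14).

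The targeted genes were detected in PP cells of both floxed libraries. Tet2 had 48 UMIs (48.9 CPM) in Cre-negative and 57 UMIs (34.9 CPM) in Cre-positive PP cells, 1.40-fold lower (0.934 to 2.09). Tet3 had 35 UMIs in each, 35.6 against 21.4 CPM, 1.66-fold lower (1.01 to 2.74). Tet1, not floxed, stood at 26.5 against 21.4 CPM. The libraries count 3' ends, which can lie outside a floxed exon, and so say nothing of whether the alleles recombined. Intervals of ratios, here and below, are exact conditional binomial 95% intervals of counting error only. Group contrasts have 1 library on each side, so genes are named by size alone, a ratio of at least 2-fold with at least 50 CPM in 1 of the 2 libraries.

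In PP cells of IHG offspring, 26 of 31 measured immediate early and heat shock genes were lower than in control offspring by the size rule. Of 3175 genes measured, 22 passed the size rule upward (0.693%) and 169 downward (5.32%). Ppy plus Pyy summed to 309810 CPM in IHG and 209374 CPM in control PP cells. Ppy was 1.14-fold (1.13 to 1.16) and Pyy 1.86-fold (1.85 to 1.88) higher, both under the 2-fold of the rule. Because Ppy chose the cells, its ratio describes the gated cells only. Hormone plus mitochondrial transcripts made up 37.9% of UMIs in IHG and 28.1% in control PP cells. With those genes removed from the total, 131 genes were higher and 148 lower of 4614, so that 47.0% instead of 11.5% of the genes past the rule were higher, and the median of all genes moved from -0.11 to 0.13 (log2). Among PP cells with Ppy from 5% to below 10% the counts were 183 and 399. With median-of-ratios scaling 29 were higher and 152 lower (16.0% higher). In alpha, delta and beta cells of the same libraries the counts were 2 and 82 of 2585, 3 and 68 of 3221, and 3 and 3 of 2541.

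By fold, Ghrl and Rgs5 came first among the lower genes, both from very few cells. Ghrl, at least 319.9-fold lower with the 0 UMIs of IHG PP cells set to 3, had its 352 control UMIs in 1 cell. Rgs5, a pericyte gene, was 49.6-fold lower (20.5 to 156), with 66 of its 91 control UMIs in 1 cell and levels of 1.28 against 3.58 CPM outside the top 3 cells. Of the 31 measured immediate early or heat shock genes, 26 passed downward and 0 upward, at a median log2 ratio of -1.55 beside -0.11 for all genes, and 24 were lower (median -1.34) without hormone and mitochondrial transcripts. Klf2, a shear- and stress-responsive factor gene, stood at 140 against 858 CPM, 6.13-fold lower (5.22 to 7.22). Atf3 stood at 127 against 680 CPM (5.34-fold lower, 4.50 to 6.37), Fosb at 1280 against 4662 CPM (3.64-fold lower), Bag3, an HSP70 co-chaperone gene, at 301 against 1162 CPM (3.86-fold lower) and Dnaja1 at 758 against 2842 CPM (3.75-fold lower). Ccn1, Thbs1 and Errfi1, genes also induced by serum and stretch, were 5.79-, 8.86- and 5.07-fold lower. The same list had 27 of 32 members lower in alpha cells, 19 of 29 in delta cells and 1 of 24 in beta cells. Over all genes 82 of 2585, 68 of 3221 and 3 of 2541 were lower in these classes. In endothelial cells Atf3, Fosb, Bag3 and Dnaja1 were 3.55-, 5.22-, 2.26- and 2.70-fold lower, and Klf2 was 1.32-fold higher. The difference of the PP and beta values was not tested.

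**Figure D5:**
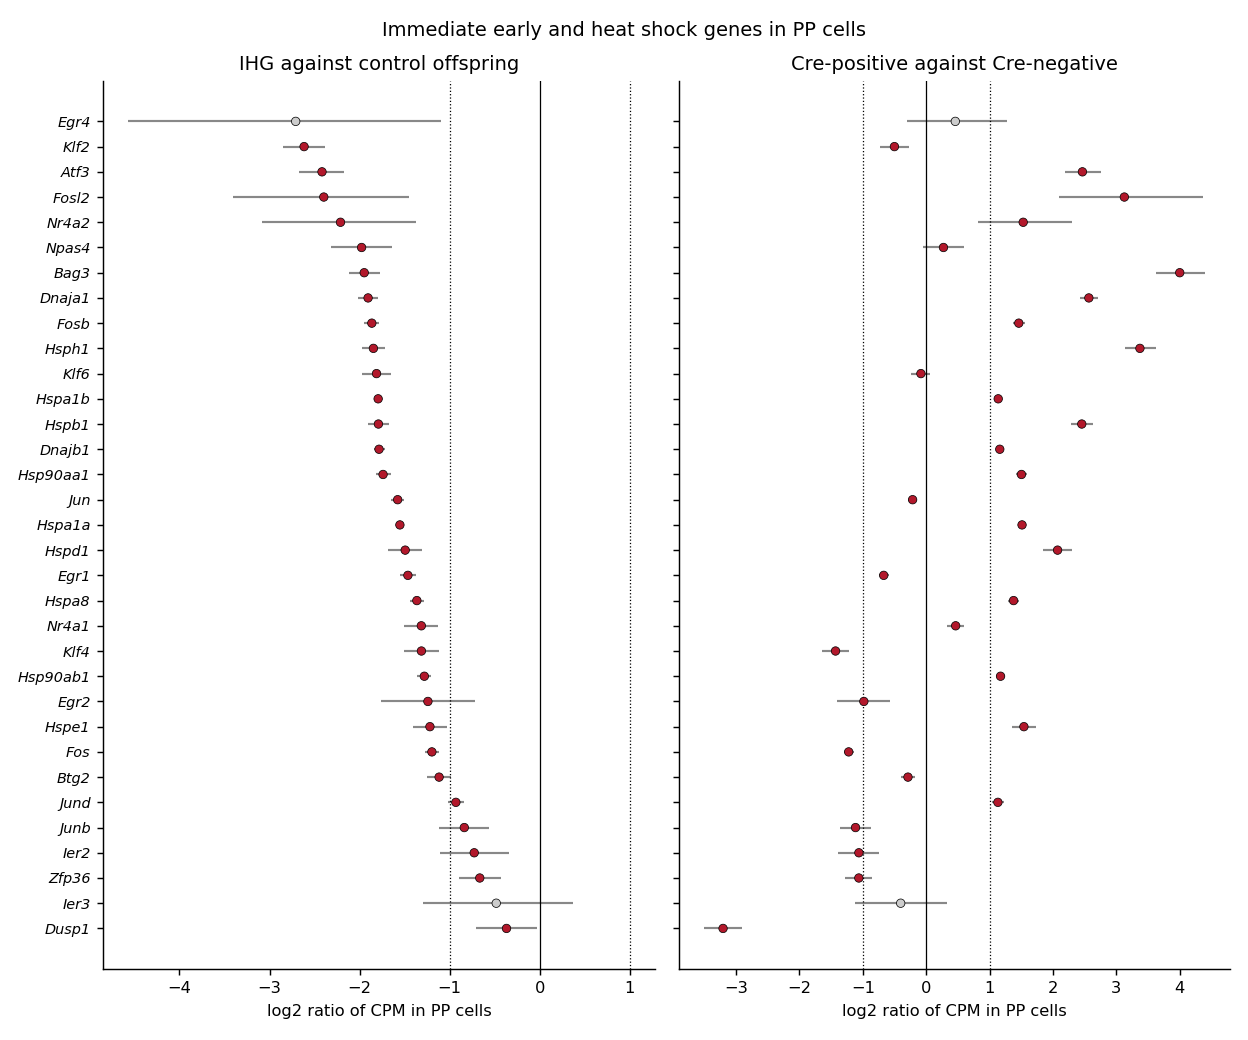
Log2 ratio with 95% counting interval of each of 33 immediate early and heat shock genes in PP cells, for IHG against control offspring and for Cre-positive against Cre-negative; grey marks genes under 50 CPM and dotted lines mark 2-fold. In the first contrast 26 genes lie past the lower line, and in the second 17 lie past the upper and 6 past the lower line.

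The higher genes in IHG offspring rested on small counts. Ndufa4, a respiratory chain subunit gene, stood at 84.0 against 19.1 CPM (132 and 11 UMIs, 4.4-fold higher, 2.38 to 9.03), and Ndufa3, a complex I subunit gene, at 84.0 against 26.0 CPM (3.23-fold, 1.89 to 5.93). Wfdc16 was 3.71-fold, Usp5 3.19-fold, Serpina7 3.11-fold, Leng8 3.04-fold, Inafm1 2.27-fold, Rcn3 2.17-fold and Pld3 2.01-fold higher. Among PP cells with Ppy from 5% to below 10%, Serpina7 was lower instead, at a log2 ratio of -0.42. Iapp was 2.03-fold higher (1.91 to 2.15) over all cells, but 1.64-fold lower without the few cells above 1% Iapp, at 859 against 1408 CPM. The median cell held 0.0530% Iapp in IHG and 0.0972% in control offspring. In endothelial cells, which do not make it, Iapp stood at 527 against 1155 CPM.

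In the endocrine lists few genes passed the size rule, as over all genes, where 0.693% passed upward and 5.32% downward. No lineage transcription factor of 15 measured, none of 12 exocytosis genes, none of 13 channel genes and none of 14 glucose metabolism genes passed 2-fold. The granule list had Iapp alone of 17, and the receptor list Grik5, a glutamate receptor subunit gene, alone of 7 (2.15-fold higher, 1.21 to 4.10). Of the unfolded protein response genes Ppp1r15a was 2.31-fold lower (1 of 21), and of interferon genes Irf1 was 2.08-fold lower (1 of 5). None of 8 TET and methylation genes passed, with Tet2 1.27-fold lower (0.763 to 2.05) and Tet3 1.19-fold lower (0.678 to 2.03), with intervals that span equal levels. Without hormone and mitochondrial genes in the total, 2 of 19 lineage factors were lower, 2 of 18 glucose metabolism genes higher and 1 of 11 TET and methylation genes lower.

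In PP cells of the Cre-positive library, chaperone genes such as Bag3, Hsph1 and Dnaja4 were higher and Ddit4 and Txnip lower than in the Cre-negative library. Of 3368 genes measured, 164 passed the size rule upward (4.87%) and 85 downward (2.52%). The Cre-negative cells here lie near the gate edge described above. Among PP cells with Ppy from 5% to below 10% in both libraries, 61 Cre-negative and 99 Cre-positive cells, the counts were 253 and 158. Ppy was 1.76-fold higher (1.75 to 1.78) and Pyy 1.77-fold lower (1.76 to 1.79) in the Cre-positive library, both under 2-fold. Ppy set the gate, so its ratio describes the gated cells only and depends on where the gate cuts. The median of all genes was -0.11 (log2). With median-of-ratios scaling the counts were 183 and 55, so that 76.9% instead of 65.9% of genes past the rule were higher, and without hormone and mitochondrial genes they were 193 and 177 of 4573 (52.2% higher, median -0.19). In alpha, delta and beta cells the counts were 108 and 122 of 3192, 178 and 70 of 3459, and 110 and 134 of 3202. The chaperone genes named above and Ddit4 and Txnip moved in the same direction in these classes. In endothelial cells Bag3 was 5.14-fold, Hsph1 25.2-fold and Dnaja4 4.73-fold higher, and Txnip was 4.47-fold and Ddit4 1.08-fold lower.

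The immediate early and heat shock list split in the Cre-positive library, where 17 of its 31 measured genes passed upward and 6 downward. Its median log2 ratio was 1.14 beside -0.11 for all genes, and 1.12 among cells with Ppy from 5% to below 10%. Bag3 stood at 943 against 59.0 CPM (16.0-fold higher, 12.3 to 21.1), Hsph1, an HSP110 chaperone gene, at 1588 against 154 CPM (10.3-fold, 8.77 to 12.3), and Dnaja4 at 1440 against 164 CPM (8.79-fold, 7.49 to 10.4). Atf3 was 5.51-fold higher. Slc5a3, the osmotically regulated myo-inositol transporter gene, stood at 210 against 13.2 CPM (15.9-fold, 9.18 to 30.2). Fos was 2.33-fold lower, and Dusp1, a phosphatase gene of the same early response, stood at 69.1 against 637 CPM (9.21-fold lower, 7.53 to 11.4). The list had 11 genes past the rule upward and 8 downward of 32 in alpha cells, 22 and 0 of 32 in delta cells and 16 and 0 of 29 in beta cells.

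Antigen presentation genes were higher in the Cre-positive library, but a few cells carried the class II genes. H2-Eb1, H2-Ab1, H2-Aa and Cd74 had 125, 212, 196 and 91 UMIs, of which 82%, 84%, 86% and 77% came from the top 3 cells. Macrophage markers in these PP cells summed to 137 CPM, and to 9.16 CPM in Cre-negative PP cells, and their part in these values was not tested. H2-Eb1 was at least 25.1-fold higher, with 0 UMIs in Cre-negative PP cells set to the floor of 3 UMIs. Without cells holding 5 or more UMIs of non-endocrine markers, the log2 ratios of the 4 genes were 1.56, 2.11, 1.24 and 2.82. Under the stricter gate 8, 14, 12 and 4 of their UMIs remained in 133 Cre-positive cells and 0 in 18 Cre-negative cells, too few to give a ratio. The 4 genes were also 18.3- to 156-fold higher in alpha, 36.3- to 50.4-fold in delta and 4.64- to 8.21-fold in beta cells. Their Cre-negative levels there were low, at 0.268 to 2.41, 1.13 to 1.98 and 2.03 to 5.48 CPM. In endothelial cells H2-Ab1 was 1.12-fold lower and the others 1.38- to 2.47-fold higher. Sparc and Apoe, also higher in Cre-positive PP cells, had 86% and 76% of their UMIs in 3 cells. Of the interferon list, 4 of 10 members were higher and 0 lower, beside 4.87% and 2.52% of all genes. They were Bst2 9.98-fold (4.11 to 31.5), Irf9 6.06-fold (3.35 to 12.1), Ifi27 3.07-fold (2.04 to 4.78) and B2m 2.08-fold (1.5 to 2.93). The same list had 2 of 7 members higher in alpha, 3 of 9 in delta and 3 of 7 in beta cells, and 0 lower. Its median log2 ratio was 0.77 in PP cells and 0.38, 0.78 and 0.72 in those classes.

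Lower in the Cre-positive library were Ddit4, which restrains mTOR under stress, at 22.6 against 211 CPM (9.31-fold, 6.53 to 13.6), and Txnip, a glucose-induced thioredoxin inhibitor gene, at 291 against 784 CPM (2.70-fold, 2.40 to 3.03). Ttr stood at 1544 against 4384 CPM (2.84-fold lower), Serpina7 at 42.8 against 153 CPM (3.56-fold), Tspan8 at 390 against 817 CPM (2.09-fold) and Syt13 at 383 against 789 CPM (2.06-fold). With median-of-ratios scaling neither Tspan8 nor Syt13 passed 2-fold. In alpha, delta, beta and endothelial cells Ttr was 2.23-, 7.09-, 1.09- and 4.34-fold lower in the Cre-positive library. Ttr was also high in the Pyy-rich cells just outside the Cre-negative gate, and its place in the PP cell contrast was not tested apart from the gate. Lpl was 2.84-fold, Rflna 6.55-fold, Rasd1 3.81-fold and Kctd12b 3.48-fold lower. Col1a2, the only listed fibroblast marker with UMIs in these PP cells, was 7.98-fold lower, and it was 6.07-fold lower in alpha cells. Gcg stood at 4228 against 762 CPM, beside 1963 against 380 CPM in endothelial cells. Herpud1, Ffar4, Slc30a8, Sqstm1 and Mt1 were 2.04- to 2.24-fold higher. No lineage transcription factor of 17 measured, none of 12 channel genes, none of 16 glucose metabolism genes and none of 8 TET and methylation genes passed 2-fold, beside 4.87% of all genes upward and 2.52% downward. With median-of-ratios scaling 1 of 17 lineage factors was higher, and without hormone and mitochondrial genes 1 of 14 TET and methylation genes was higher.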

How the data were processed

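Islet cells of 4 groups of male mice aged 8 weeks were captured with the SeekOne MM 3' kit, per the labels' protocols. The matrices deposited by the authors hold counts, UMIs per gene and barcode for 32285 genes, not normalized. The submitters' processing notes name Cell Ranger, Seurat and mm10, without versions or roles. No source used here names the aligner, the annotation or the strand setting, so reads of overlapping, antisense and near-identical genes (Hspa1a and Hspa1b, class II genes) may be split or shared. The libraries held 6421, 10145, 16459 and 12684 barcodes, of which 5928, 9587, 15752 and 11938 were kept (500 genes, 20% mitochondrial).

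Cells were gated on hormone shares and UMIs summed per library and class. Classes were compared with edgeR 4.0.16 (R 4.3.3, quasi-likelihood, TMM, filterByExpr, library as block, Benjamini-Hochberg at 0.05), without the 5 gate genes. This script and the ratio intervals were tested on simulated data. Between groups, each with 1 library, CPM ratios have exact conditional binomial 95% intervals and no test. Named were Ppy and Pyy, the 10 genes furthest up and down per class comparison (50 CPM, same sign in 4 libraries), the 10 with the largest smallest fold over all 3 classes, the 10 highest and lowest per contrast by the nearer interval limit, and up to 5 members per list. Some genes that this rule names are not reported here. Genes lower than all 3 classes and some list members were named after their values were seen. Members and lists were chosen with earlier results of these data known. Alternatives covered scaling, filters, gates, doublets (Scrublet in scanpy 1.11.5), DESeq2 1.42.0 and each library left out. Coordinates are GENCODE vM21, matched for 32158 identifiers.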

Additional observations from a re-analysis of the deposited data

Results flagged for a closer look

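Iapp moved in opposite directions in 2 cell classes under the same contrast. Between IHG and control offspring its log2 ratio was 1.02 in PP cells and -0.88 in alpha cells. In delta and beta cells it was 0.18 and 0.10. Alpha cells held 769 against 1411 CPM of Iapp, beside 527 against 1155 CPM in endothelial cells, which do not make it. The part of free RNA in the alpha-cell values was not tested. The difference between PP and alpha cells was not tested either, since each group was 1 library. In PP cells 82.5% of the IHG Iapp UMIs came from the 20 cells above 1% Iapp, and without such cells the log2 ratio was -0.71.

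Cells outside every hormone gate of the comparisons carried a Pyy signal in the Cre-negative library. Cells with Pyy at 3% or more and Ppy below 3% made up 7.86% of its kept cells, or 466 cells, against 16, 19 and 49 cells in the Cre-positive, control and IHG libraries.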

How the results depend on the processing

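For the 10 genes furthest up and the 10 furthest down against each of alpha, delta and beta cells, direction and side of the threshold held in all 718 values computed under the other settings. These genes were picked in the same data for large folds with the same sign in 4 libraries. That choice left little room for a change. Calls of list members held less often. Of 500 such calls, 268 stayed past the threshold with no replicate block, 396 without the IHG offspring library, 405 under the stricter gate and 412 with DESeq2, and the sign changed for 1 under the stricter gate and 2 with the gate on Pyy. With DESeq2 757 were higher and 541 lower than in alpha cells, and 782 and 833 than in delta cells. With no replicate block the counts were 362 and 302 against alpha and 640 and 774 against delta cells. Genes past the test against all 3 classes numbered 165 higher and 68 lower with DESeq2, and 76 and 45 without the block. No paired analysis of the groups was possible because each group is 1 library, and the block in the class tests is the library. Leaving out 1 library gave 782 to 1059 higher and 657 to 927 lower than in alpha cells, 926 to 1359 and 948 to 1291 than in delta cells, and 1349 to 1802 and 1542 to 2050 than in beta cells. The lowest alpha counts were those without the IHG offspring library. The cause was not tested.

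For IHG against control offspring, 131 genes were higher without hormone and mitochondrial genes in the total. There were 150 higher and 412 lower at a 20 CPM minimum, 617 and 723 with only 10 UMIs required, and 159 and 503 at 1.5-fold. The stricter gate (Ppy at least 10%, other hormones below 1%) gave 62 higher, and PP cells with Ppy from 5% to below 10% gave 183 and 399. For Cre-positive against Cre-negative, median-of-ratios scaling gave 55 lower and the total without hormone and mitochondrial genes 177. The counts were 321 and 347 at 20 CPM, 785 and 924 with 10 UMIs, 323 and 421 at 1.5-fold, 296 and 380 under the stricter gate, and 253 and 158 with Ppy from 5% to below 10%. A gate on Pyy instead of Ppy gave 148 lower.

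Directions reversed for Serpina7 (log2 ratio -0.42) and the receptor list median (-0.32) in IHG against control cells with Ppy from 5% to below 10%. That window chooses cells on Ppy, so it gives no value for Ppy. The stricter gate gave none in the Cre contrast for H2-Eb1, H2-Ab1, H2-Aa, Cd74, Sparc and Apoe, which had 0 UMIs in its 18 Cre-negative cells. Without cells above 1% Iapp, Iapp reversed in both contrasts (-0.71 and -0.10). Of the other values of named genes in the contrasts 256 stayed within the counting interval and 79 left it. Of the other list medians 119 moved by less than 0.1 (log2) and 42 by more.

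The PP share of the Cre-negative library was 4.39% at a 2% gate, 1.85% at 5%, 0.483% at 10% and 12.3% with the gate on Pyy. At 10% the others stood at 2.94% (Cre-positive), 0.600% (control) and 2.14% (IHG), and IHG stood at 3.12% with the gate on Pyy. The gate on Pyy, the removal of cells with non-endocrine markers, the 5% to 10% window and the Iapp limit were chosen after seeing the data. The control offspring PP cells held the fewest UMIs, 576634 in all.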

Other observations

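The 466 Pyy-rich cells with Ppy below 3% in the Cre-negative library differed from its gated PP cells in further genes. Their Ppy level was 8191 CPM and their Pyy level 123862 CPM. Chga stood at 27928 CPM against 13744 CPM in gated PP cells, Iapp at 3390 against 1000 CPM, and Rbp4, the retinol carrier gene, at 490 against 87.5 CPM. The transcription factor genes Sox4 and Irx2 stood at 217 against 81.4 CPM and 43.4 against 11.2 CPM. Etv1, high in gated PP cells, stood at 440 against 520 CPM. The set was chosen on Pyy and Ppy and comes from 1 library, so these values have no test.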
